A study of Mus musculus with 4 samples.

Results

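The immediate early transcription factors are genes that cells switch on within minutes of a stimulus, without making new protein first. Measured here were 10 of them, Fos, Fosb, Jun, Junb, Egr1, Egr2, Nr4a1, Ier2, Atf3 and Klf4, in the kidneys of mice after bile duct ligation (BDL), which ties off the bile duct and causes cholestasis, or after a sham operation. Members were taken as all non-control probes whose RefSeq accession belongs to 1 of these genes. Each gene had 1 such probe, so the set held 10 of the 55668 probes analysed. A probe was kept for testing when both arrays of either group flagged it as well above background. By this filter 9 members were kept, and each of these 9 carried the flag on all 4 arrays. Egr2 was not kept.

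The study compared 2 sham-operated with 2 ligated mice, whose kidneys were taken 2 weeks after surgery. The sham group had the operation without ligation according to its name, and the labels give no other treatment, genotype, strain, sex or age. Total RNA of whole kidney was labelled with Cy3 and hybridised to 1 array per sample. The design text calls the replicates biological. The series title points to drug handling by the kidney in cholestasis, and how immediate early genes stand in these kidneys is a part of that comparison which the labels do not address.

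Immediate early genes sit at the end of kinase pathways. Growth factors, injury and stretch act through MAP kinases on serum response factor and its partners, and cyclic AMP and calcium act through CREB, and both kinds of factor sit on the promoters before the stimulus arrives. The products bind DNA themselves: FOS and JUN proteins pair as AP-1, ATF3 pairs with JUN proteins, EGR and KLF proteins are zinc finger factors, and NR4A1 is an orphan nuclear receptor. Their mRNAs are short-lived, so that levels fall soon after a stimulus ends. In kidney they are best known for their surge after ischaemia.

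The promoters of 5 members are shown because a short sequence recurs in most members, the core of the cyclic AMP response element (TGACG, or CGTCA on the other strand), which CREB is known to bind. The sequences are the 250 bases before the gene start from RefSeq (GRCm38.p6), which held windows for 8 of the 10 members. Egr1 and Ier2 had none in that table. Capitals mark TGACG or CGTCA and, in Fos, the TATA box TATAAA. Shown are Fos at chr12:85473640-85473889 (plus strand), Junb at chr8:84978749-84978998 (minus strand), Nr4a1 at chr15:101266596-101266845 (plus strand) and Klf4 at chr4:55532476-55532725 (minus strand), whose values did not overlap between the groups, and Jun at chr4:95052223-95052472 (minus strand), whose values did.
Fos: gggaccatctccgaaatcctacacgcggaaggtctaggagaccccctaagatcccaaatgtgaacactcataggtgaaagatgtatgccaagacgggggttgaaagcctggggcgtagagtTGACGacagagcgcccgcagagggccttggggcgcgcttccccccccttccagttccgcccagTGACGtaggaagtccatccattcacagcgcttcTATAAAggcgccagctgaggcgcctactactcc
Junb: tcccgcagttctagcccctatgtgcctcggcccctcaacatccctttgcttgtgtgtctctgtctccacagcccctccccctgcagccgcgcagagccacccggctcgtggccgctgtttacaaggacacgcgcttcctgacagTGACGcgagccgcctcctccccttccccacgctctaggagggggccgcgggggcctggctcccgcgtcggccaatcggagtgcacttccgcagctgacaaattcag
Nr4a1: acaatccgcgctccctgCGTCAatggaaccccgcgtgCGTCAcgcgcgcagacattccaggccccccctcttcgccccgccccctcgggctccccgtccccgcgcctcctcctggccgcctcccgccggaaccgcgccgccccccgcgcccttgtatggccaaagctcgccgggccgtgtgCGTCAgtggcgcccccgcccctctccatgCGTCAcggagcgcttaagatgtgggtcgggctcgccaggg
Klf4: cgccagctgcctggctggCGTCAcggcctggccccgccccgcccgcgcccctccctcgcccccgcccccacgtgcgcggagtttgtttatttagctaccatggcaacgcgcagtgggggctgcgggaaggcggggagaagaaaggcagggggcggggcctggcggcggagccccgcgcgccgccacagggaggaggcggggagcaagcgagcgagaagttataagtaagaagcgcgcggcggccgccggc
Jun: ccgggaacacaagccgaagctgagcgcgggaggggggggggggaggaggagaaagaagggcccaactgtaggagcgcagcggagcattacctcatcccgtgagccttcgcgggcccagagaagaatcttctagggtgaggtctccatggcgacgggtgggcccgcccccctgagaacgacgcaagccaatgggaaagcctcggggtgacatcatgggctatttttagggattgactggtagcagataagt

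The core was found, on either strand, in 7 of the 8 members with a window (Fos, Fosb, Junb, Atf3, Egr2, Nr4a1 and Klf4) and not in Jun. It was thus found in members whose groups overlapped (Fosb and Atf3) as well as in those whose groups did not. Among all 32851 RefSeq windows of this length, 17.8% held it. Egr2 has several start sites and was counted if any of its windows held it. The core includes a CG pair, and the members' windows were rich in G and C, from 54.0% to 74.4% where the median of all windows was 52.4%. In Fos the core lay from base -129 to -125 and from -66 to -62 before the start, and in Nr4a1 it occurred at 4 places. The full element TGACGTCA, which contains the core and was in 1.55% of all windows, was in 0 of the 8. The AP-1 site TGANTCA (both strands, 6.75% of all windows) was in 0 as well. The EGR site GCGNGGGCG (both strands, 4.7% of all windows) was in 3, namely Fosb, Nr4a1 and Klf4. The CArG box, which serum response factor binds, was in Egr2 alone (1.47% of all windows). Bases farther upstream, and the promoters of Egr1 and Ier2, were not searched for any of these sites. TATAAA, searched on the gene's strand, was in Fos alone (7.59%). These matches describe letters in a short window and do not show binding.

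All levels below are log2 processed signals, counted from the 75th percentile of their array, differences are BDL minus sham on the log2 scale, and standard errors (SE), 95% intervals and p-values come from limma with Benjamini-Hochberg adjustment over all 24044 features (1 probe per gene). A negative level means only that a probe is dimmer than that percentile, and levels of different probes are not compared. The tissue label was checked on markers of the proximal tubule, of which 6 of 6 were measured, with a mean level between 7.25 and 7.52 on the 4 arrays. BDL replicate 1 stood apart in urothelial and adipocyte markers. Its mean over 5 of 5 urothelial markers was 3.0, against -2.83 in BDL replicate 2 and -1.36 and 0.31 in the sham kidneys. Its mean over the 2 measured of 4 adipocyte markers (Fabp4 and Cfd) was 6.34, against -0.19 in BDL replicate 2 and 2.55 and 1.17 in the sham kidneys. Adipoq and Plin1, which define adipocytes more strictly, were not retained. Sham replicate 1 was high in macrophage markers (mean 1.52 over 4 of 5, against 0.43 to 0.89 elsewhere) and T cell markers (-0.89 over 3 of 4, against -1.86 to -2.36).

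Most immediate early genes had a higher mean in BDL than in sham kidneys. The 4 members with the smallest p were Fos, Nr4a1, Junb and Klf4, with differences of 1.03, 0.77, 0.62 and 0.60. Atf3 differed as much as Junb, by 0.62, but overlapped between the groups, and Jun and Fosb were at -0.11 and 0.01. Of the 9 measured members, 8 had a higher mean in BDL, where 48.6% of all features did, and 1 a lower mean. Both BDL arrays stood above both sham arrays in 5 members (Fos, Junb, Egr1, Nr4a1 and Klf4), where 17.4% of all features did so. Both stood below in 0 members, against 19.3% of features, so that 5 of 9 members did not overlap in either direction, against 36.6%. The median difference of the members was 0.60, and that of all features was -0.01. None passed the threshold of an adjusted p of 0.05, nor did any feature on the array (0% called, smallest adjusted p 0.198), and the smallest adjusted p among members was 0.759. At an unadjusted limma p under 0.05 stood 2 members, Fos and Nr4a1, both higher in BDL, beside 5.62% of all features in either direction and 2.59% higher in BDL. With 2 arrays a group, the smallest p an exact permutation test can give is 0.333. Red blood cell markers stood higher in BDL as well. Of 3 such markers 2 were measured, both without overlap, with means of 4.88 and 4.16 in sham and 7.12 and 5.4 in BDL kidneys. Hba-a1, a globin gene, was at 7.72 and 7.22 in sham and 8.90 and 8.05 in BDL, and Alas2, the haem synthesis enzyme of red cell precursors, at 2.05 and 1.1 in sham and 5.33 and 2.74 in BDL. Their part in the members' values was not tested.

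Sham replicate 2 was the low array of the set. Without it 5 of 9 members had a higher mean in BDL and the median difference was 0.14. The same median was 0.64 leaving out sham replicate 1 and 0.39 leaving out BDL replicate 1. Groups did not overlap, with BDL higher, in 7 of 9 members when sham replicate 1 was left out (34.9% of all features), in 5 without sham replicate 2 (35.8%), in 5 without BDL replicate 1 (28.7%) and in 7 without BDL replicate 2 (31.9%).

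**Figure D1:**
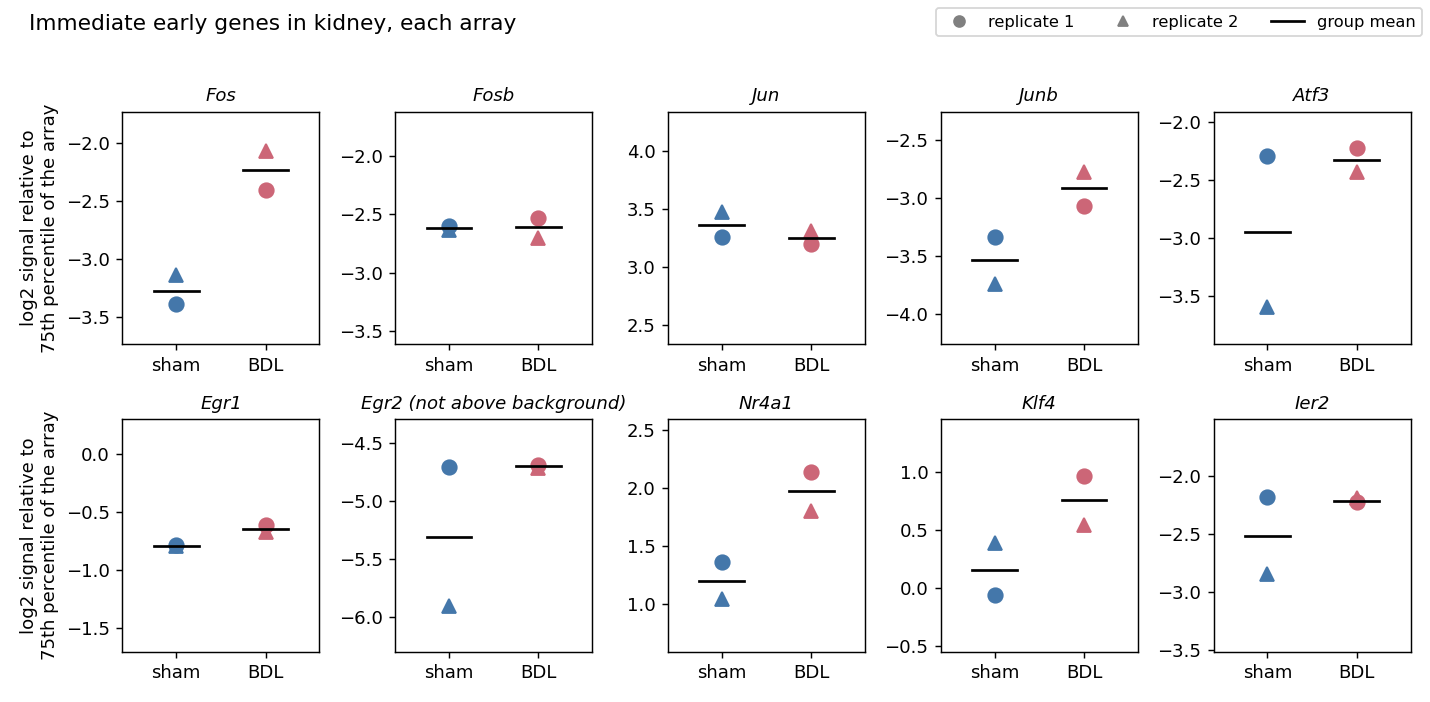
Levels of the 10 genes on each array (vertical axes, log2 signal relative to the 75th percentile of the array, each spanning the same range but centred on its own gene) in sham (blue) and BDL (red) kidneys, with replicates as symbols and group means as bars. The BDL values of Fos, Junb, Egr1, Nr4a1 and Klf4 lie above both sham values, and Egr2 lacked the flag for a signal well above background.

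Among the FOS genes, the arrays of the groups were apart for Fos and overlapped for Fosb, and whether the genes differ in their response was not tested. Fos, the archetype of the class and the partner that lends AP-1 its stability, was at -3.39 and -3.14 in sham and at -2.40 and -2.07 in BDL kidneys. The gap between the highest sham and the lowest BDL array was 0.74, larger than the distance within sham (0.26) or within BDL (0.33). In signal units the probe read 67.7 and 96.6 in sham and 140.6 and 225.5 in BDL. The dimmest probe well above background on each array read 23.3 to 26.7. Brighter readings can lack that flag, as Egr2 did at 35.9 in BDL replicate 2. The difference of Fos was 1.03 (SE 0.23, 95% interval 0.42 to 1.65, 2.05-fold, limma adjusted p = 0.759). It ranked 258 of 24044 features by p. Without BDL replicate 1, the kidney high in urothelial and adipocyte markers, its difference was 1.20. This was the highest value with 1 array left out, and the lowest was 0.87, without BDL replicate 2.

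The Fos probe is printed 10 times on each array, which gives a measure of spotting error. In sham replicate 1 the 10 spots ran from -3.64 to -3.06 (SD 0.16), and in sham replicate 2 the 8 spots without an outlier flag ran from -3.26 to -2.97 (SD 0.11). In BDL replicate 1 they ran from -2.60 to -2.24 (SD 0.11) and in BDL replicate 2 from -2.22 to -1.78 (SD 0.14). No spot of a BDL array was as low as any spot used of a sham array. Spots of 1 array share its RNA, so they bear on the precision of each array's level and not on the spread between animals.

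**Figure D2:**
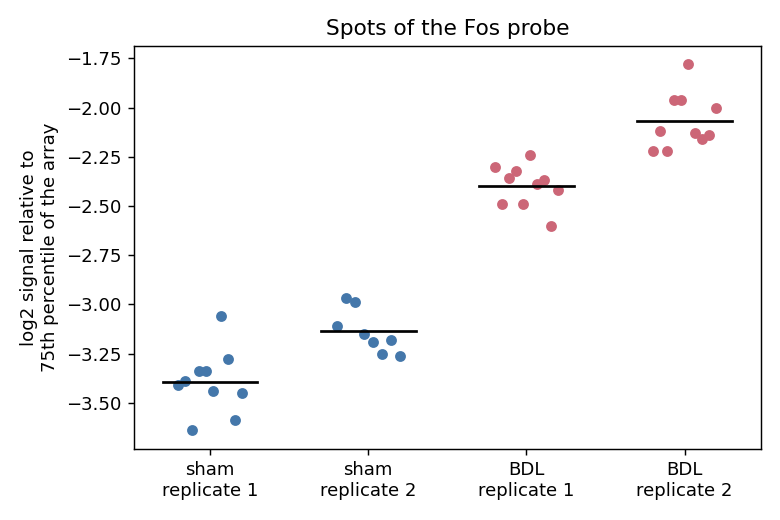
Each point is 1 spot of the Fos probe without an outlier flag (vertical axis, log2 signal relative to the 75th percentile of the array), by array, with the array mean as a bar. The highest sham spot is at -2.97 and the lowest BDL spot at -2.60.

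Fosb, whose product pairs with JUN proteins as FOS does, was at -2.60 and -2.63 in sham and at -2.53 and -2.70 in BDL kidneys. The BDL values enclosed the sham values. Its difference was 0.01 (SE 0.19, 95% interval -0.51 to 0.52, or 0.704-fold to 1.43-fold, limma adjusted p = 0.997).

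The JUN genes encode the partners that FOS proteins need. Jun, a strong activator in AP-1, was at 3.26 and 3.47 in sham and at 3.20 and 3.31 in BDL kidneys, with overlap. Its difference was -0.11 (SE 0.20, 95% interval -0.64 to 0.43, adjusted p = 0.940). Junb, which pairs with FOS but activates fewer targets than JUN, was at -3.34 and -3.74 in sham and at -3.07 and -2.78 in BDL kidneys. Both BDL kidneys were higher, by a gap of 0.28 that was about as wide as the distance within BDL (0.28) and narrower than that within sham, 0.40. In signal units the Junb probe read 70.1 and 63.5 in sham and 88.4 and 137.4 in BDL. The difference was 0.62 (SE 0.25, 1.54-fold, 95% interval -0.03 to 1.27, limma adjusted p = 0.872). It was 0.42 without sham replicate 2 and 0.82 without sham replicate 1.

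Atf3, a stress-induced repressor that tubule cells make after injury, was at -2.30 and -3.60 in sham and at -2.23 and -2.43 in BDL kidneys. Only sham replicate 2 was low, and sham replicate 1 lay between the BDL arrays. The difference of 0.62 (SE 0.47, 95% interval -0.63 to 1.86, limma adjusted p = 0.885) depended on which sham array was used. It was -0.03 without sham replicate 2 and 1.26 without sham replicate 1. Ier2, a small nuclear protein of the immediate early response, had the same shape, at -2.18 and -2.84 in sham and at -2.22 and -2.19 in BDL kidneys. Its difference was 0.30 (SE 0.29, 95% interval -0.46 to 1.07), -0.03 without sham replicate 2 and 0.64 without sham replicate 1.

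Egr1, the zinc finger factor that is usually induced together with Fos, was at -0.78 and -0.79 in sham and at -0.61 and -0.67 in BDL kidneys. The groups did not overlap, but the difference was small, 0.15 (SE 0.19, 1.11-fold, 95% interval -0.35 to 0.64, limma adjusted p = 0.918). The upper end of the interval is 1.56-fold, below the 2.05-fold measured for Fos. The interval of Fos starts at 1.34-fold, so the intervals of the 2 genes overlap. Whether Egr1 and Fos differ in their response was not tested. Egr2, its relative known from nerve and immune cells, had no array on which it was well above background, with readings of -4.71 and -5.91 in sham and -4.69 and -4.72 in BDL kidneys, and it gives no fold change.

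Nr4a1, an orphan nuclear receptor that responds to cyclic AMP and stress, was at 1.36 and 1.04 in sham and at 2.14 and 1.80 in BDL kidneys. Both BDL kidneys were higher by a gap of 0.44, wider than the distance within sham (0.32) or within BDL (0.34). The difference was 0.77 (SE 0.24, 1.70-fold, 95% interval 0.13 to 1.41, limma adjusted p = 0.861). It ranked 768 of 24044 features by p, and it stayed between 0.60 and 0.94 whichever array was left out.

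Klf4, a zinc finger factor of epithelial, endothelial and smooth muscle cells and of podocytes, was at -0.06 and 0.39 in sham and at 0.97 and 0.55 in BDL kidneys. The groups did not overlap, but BDL replicate 2 stood only 0.16 above sham replicate 2. The difference was 0.60 (SE 0.28, 1.51-fold, 95% interval -0.13 to 1.33, limma adjusted p = 0.872), and it was 0.37 without sham replicate 1 and 0.39 without BDL replicate 1. Podocyte markers also stood higher in BDL, 4 of 4 without overlap, with means of 1.44 and 1.20 in sham and 1.99 and 1.93 in BDL. The 5 of 5 smooth muscle and mesangial markers averaged -0.36 and 0.48 in sham and 0.63 and -0.06 in BDL. Acta2 and Myh11 were highest in BDL replicate 1, as Klf4 was, but Tagln, Pdgfrb and Des were highest in sham replicate 2. The part of these cells in the Klf4 values was not tested. In RNA of whole kidney, a change in the number of cells of a type and a change in RNA per cell cannot be told apart.

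**Figure D3:**
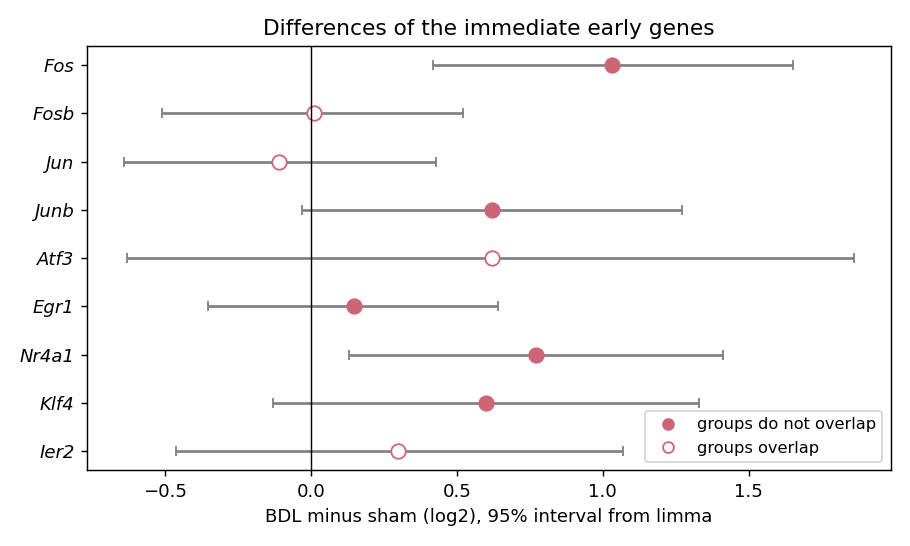
Difference between BDL and sham (horizontal axis, log2) for the 9 measured genes with the 95% interval from limma as a line; filled points mark genes whose groups do not overlap. Only the intervals of Fos (0.42 to 1.65) and Nr4a1 (0.13 to 1.41) lie above 0.

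Set against each gene's own mean over the arrays, the members followed more than 1 pattern. Averaged over the 9 members, the centred levels were -0.12 and -0.32 in sham and 0.24 and 0.20 in BDL kidneys. Sham replicate 2 was the lowest array for 5 members and BDL replicate 1 the highest for 5. Fos and Junb were highest in BDL replicate 2, Nr4a1, Klf4, Atf3, Egr1 and Fosb in BDL replicate 1. Between replicates, the median absolute distance of the members was 0.32 in sham and 0.20 in BDL, where that of all features was 0.31 and 0.23. The 5 other named features whose 4 centred values lay nearest to the members' mean profile were Acss1 (Euclidean distance 0.023, difference 0.44), a mitochondrial acetyl-CoA synthetase, Pds5a (0.0303, 0.47), a cohesin regulator, Ube2h (0.0328, 0.46), a ubiquitin-conjugating enzyme, Tent4a (0.0504, 0.42) and Ppp1r15b (0.0567, 0.45), a phosphatase subunit that acts on eIF2. Of the 15014 named features compared over 4 arrays, 576 lay within a distance of 0.25, so such a profile is not particular to the members.

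**Figure D4:**
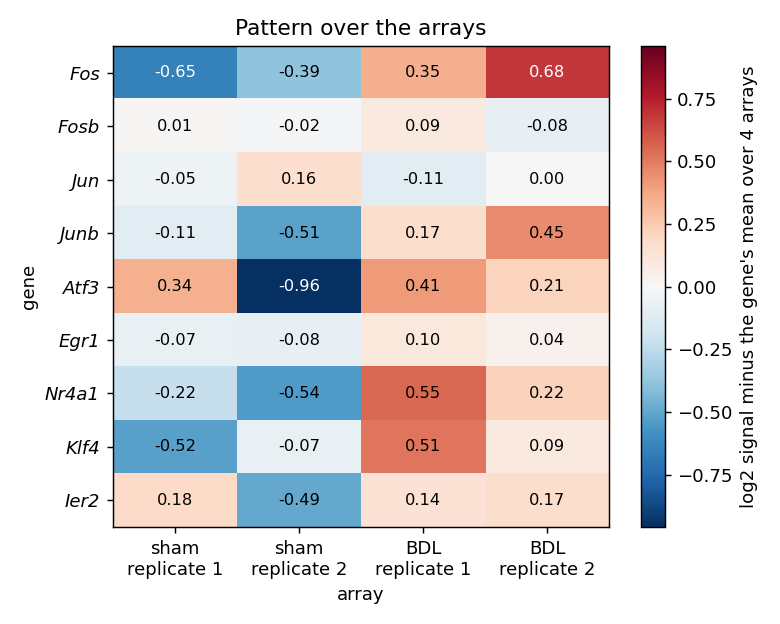
Level of each measured gene on each array (colour and number, log2 signal minus the gene's mean over the 4 arrays). Atf3 and Ier2 are low on sham replicate 2 alone, while Fos and Nr4a1 are below their mean on both sham arrays and above it on both BDL arrays.

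The genes around the members were read as lists, of which none had a gene past the threshold. The shares of all features given above, 48.6% higher, 17.4% above without overlap and 19.3% below, are the background for each count. A list of 14 further genes was drawn from the EGR, NR4A, KLF and IER families and does not cover these families in full. All 11 that were measured had a higher mean in BDL, with 6 above both sham arrays, 0 below and a median of 0.40. The differences ran from 0.02 in Klf9 to 0.78 in Ier5l. The 3 with the smallest p were Ier5l, at 2.41 and 2.04 in sham and 2.99 and 3.03 in BDL (0.78, SE 0.22, limma adjusted p = 0.855), Ier3, which restrains cell death and NF-kappaB (0.55, SE 0.19), and Ier5, a regulator of heat shock factor (0.65, SE 0.27). Leaving out BDL replicate 1 gave a median of 0.23. Egr3, Egr4 and Nr4a3 were not retained. The bZIP partners of AP-1 were divided, with 5 of 10 higher, 5 lower, 2 above and 1 below without overlap, and a median of 0.08. That median was 0.27 without sham replicate 1 and turned to -0.04 without sham replicate 2 and to -0.01 with no filter on dim probes. With every retained probe it was 0.24. Fosl2, a FOS relative, was at -0.39 and 0.00 in sham and 1.05 and 0.29 in BDL (0.86, SE 0.34), Mafg, a small MAF protein, differed by 0.49 (SE 0.19) and Batf3 by 0.52 (SE 0.43, with overlap).

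Other genes of the fast response were higher in 20 of 28 measured, with 7 above and 3 below without overlap and a median of 0.17, which was 0.07 without sham replicate 1 and 0.32 without sham replicate 2. At an unadjusted limma p under 0.05 were 4 higher and 1 lower. Nfil3, a bZIP repressor of clock and immune genes, was at -0.29 and 0.29 in sham and 2.11 and 1.51 in BDL, a difference of 1.81 (SE 0.33, 3.50-fold, limma adjusted p = 0.673) that was larger than that of any member. Socs3, the feedback inhibitor of cytokine receptors, differed by 1.63 (SE 0.43). Plk2, a kinase of the stress response, went the other way, at -1.28 and -1.84 in sham and -2.57 and -2.84 in BDL (-1.14, SE 0.28, limma adjusted p = 0.762). Myc (0.72, SE 0.21) and Bhlhe40 (0.76, SE 0.21) were the other 2 higher, and are named because of these values.

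Upstream of the members, 18 of 28 transcription factors and kinases were higher, with 8 above and 3 below without overlap and a median of 0.04, which was 0 leaving out sham replicate 2 and 0.10 leaving out sham replicate 1. Creb1, which encodes the factor of the cyclic AMP response element, was at -3.09 and -3.05 in sham and at -2.12 and -2.09 in BDL, 1.96-fold higher (0.97, SE 0.19, limma adjusted p = 0.673). Elk4, a partner of serum response factor, differed by 0.36 (SE 0.20) and Egfr, the epidermal growth factor receptor, by 0.39 (SE 0.23). Feedback inhibitors were higher in 15 of 20 (7 above and 2 below without overlap, median 0.17 and from 0.09 to 0.23 over the alternatives). Zfp36l1, which speeds the decay of AU-rich mRNAs, was at 3.20 and 3.21 in sham and 3.90 and 3.87 in BDL (0.68, SE 0.19, limma adjusted p = 0.815), and the MAP kinase phosphatase Dusp8 differed by 0.67 (SE 0.20). Spry4, an inhibitor of receptor tyrosine kinases, was at -3.59 and -3.96 in sham and read -4.99 and -4.12 in BDL, where only 1 array gave a signal well above background. It was kept through sham alone, and without it 15 of 19 were higher, 7 above and 1 below.

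Downstream, 12 of 18 measured targets of AP-1 or EGR1 were higher (5 above and 1 below without overlap, median 0.14). Timp1, an inhibitor of matrix proteases, was at -3.39 and -3.92 in sham and -1.60 and -2.39 in BDL (1.66, SE 0.36), Spp1, which encodes osteopontin, differed by 0.57 (SE 0.20), and Edn1, the endothelin-1 gene, by 1.04 (SE 0.53) with sham replicate 1 at -4.36 and the other 3 arrays between -2.88 and -2.55. Leaving out BDL replicate 2 gave a median of 0.01, and leaving out BDL replicate 1 gave 0.24. Mmp3, Mmp9, Mmp10, Il6, Lif and Tnf were not retained. In the ATF4 and CHOP pathway, which drives Atf3 in other settings, 7 of 11 were higher (2 above and 1 below without overlap) with a median of 0.06. That median was 0.19 without sham replicate 1 and turned to -0.02 without BDL replicate 2. The smallest p was that of the stress protein gene Nupr1 (1.30, SE 0.52). It was at 1.62 and 3.08 in sham and 3.74 and 3.56 in BDL, with sham replicate 1 far below the other arrays. Sesn2 (0.49, SE 0.33) and Asns (0.59, SE 0.45) overlapped between the groups.

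**Figure D5:**
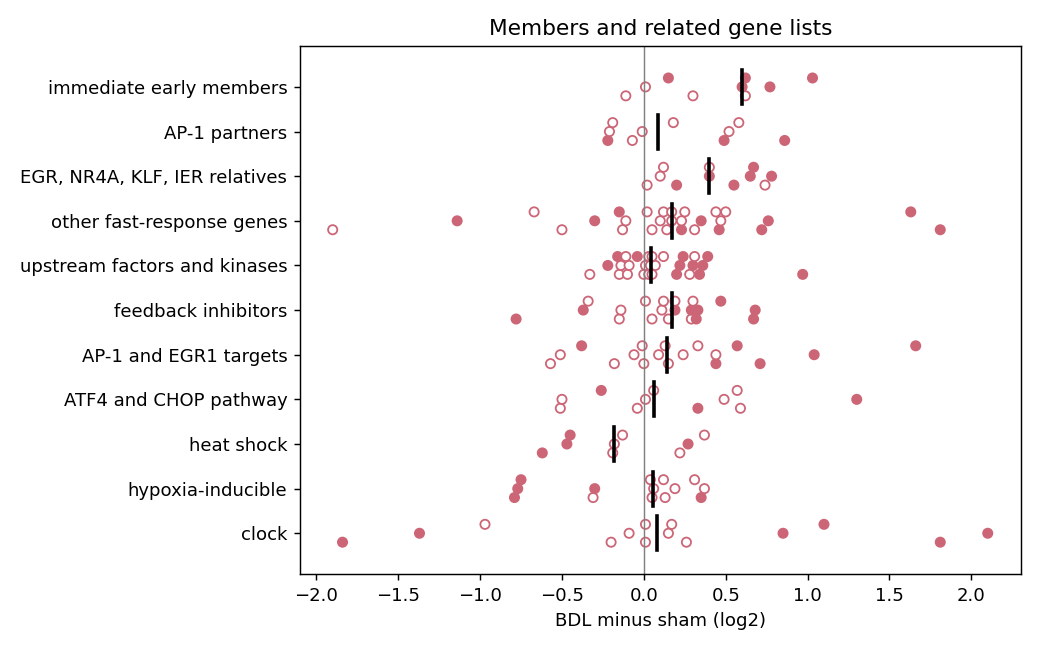
Difference between BDL and sham (horizontal axis, log2) for each measured gene of the set and of 10 related lists (rows); filled points mark genes whose groups do not overlap and vertical bars the list medians. The median is 0.60 in the members, 0.40 in their listed family relatives and between -0.18 and 0.17 in the other lists.

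Genes of 3 other fast-moving programmes were read beside the members. Heat shock genes were lower in 6 of 9 measured (1 above and 3 below without overlap, median -0.18, which was -0.07 without BDL replicate 1 and -0.31 without BDL replicate 2), among them the mitochondrial chaperone genes Hspe1 (-0.62, SE 0.28) and Hspd1 (-0.47, SE 0.27), while Dnajb1 was at 0.27 (SE 0.19). Hypoxia-inducible genes were higher in 9 of 14 and lower in 5 (1 above and 4 below without overlap). Their median of 0.06 turned to -0.04 without sham replicate 1, -0.01 without sham replicate 2, -0.02 without BDL replicate 1 and -0.06 without BDL replicate 2. The 3 with the smallest p were all lower in BDL, Pfkfb3, a regulator of glycolysis (-0.75, SE 0.19), Egln3, a prolyl hydroxylase (-0.77, SE 0.27), and P4ha1, a collagen hydroxylase (-0.79, SE 0.29). Of 14 clock genes measured, 9 were higher, 4 above and 2 below without overlap, with a median of 0.08 (0.02 without sham replicate 1, 0.13 without BDL replicate 1), and 5 had an unadjusted limma p under 0.05 (3 higher, 2 lower). Cry1, a clock repressor, read -5.52 and -6.07 in sham, where no array gave a signal well above background. In BDL it was at -3.79 and -3.61, and no fold change is given. It was kept through BDL alone and so had to be higher, and without it 8 of 13 were higher, 3 above and 2 below, and 4 stood at an unadjusted limma p under 0.05. Nr1d1, a repressor of the same loop, was at 0.55 and 0.16 in sham and -1.53 and -1.44 in BDL (-1.84, SE 0.23, limma adjusted p = 0.422). Nfil3 belongs to this list as well. Arntl (1.1, SE 0.41) and Dbp (-1.37, SE 0.32) complete the 5 and are named for their p. None of these clock genes passed the threshold. Their part in the values of Fos, Nr4a1, Junb and Klf4 was not tested. The hours of surgery and sampling are not given in the sources used here.

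Of 4 neutrophil markers 3 were measured. Mpo was kept through BDL alone, since only 1 sham array showed it well above background. The other 2 had a higher mean in BDL, where 48.6% of all features did. Of these 2, 1 was above without overlap, against 17.4% of features. S100a8 was at 1.25 and -1.81 in sham and 2.28 and 1.32 in BDL. S100a9, at 3.61 and 0.34 in sham and 4.59 and 3.55 in BDL, overlapped between the groups. Both were lowest in sham replicate 2, which was also the lowest array for 5 of the members. Endothelial markers averaged 0.52 and 0.86 in sham and 0.78 and 0.74 in BDL. What neutrophils add to the members' values was not tested.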

How the data were processed

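Total RNA of 4 mouse kidneys (2 sham, 2 BDL) was measured on 1-colour arrays. The scans were read in Agilent Feature Extraction 11.0.1.1 (named in the submitters' processing notes). The processed signal as deposited is, per the file headers, a linear intensity after background subtraction and spatial detrending, with no scaling from array to array. The authors' value table is, by comparison with the scanner values, that intensity divided by 1 constant per array. The constants were 709 and 844.4 (sham) and 738.5 and 939.8 (BDL), close to each array's 75th percentile; how they were set is not given in the sources used here. Its column medians were 0.328 and 0.339 (sham) and 0.329 and 0.33 (BDL). The deposited flag columns mark outlier, saturated and background spots. The 4 arrays share 1 slide and 1 scan time.

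Here log2 signals were set against each array's 75th percentile (712, 849, 741 and 945 units for sham and BDL replicates 1 and 2). Control and outlier-flagged spots were left out, and spots of a probe were averaged on the log2 scale; a probe was well above background where at least 50% of its spots were. Accessions matched to RefSeq (GRCm38.p6, names only; the grid lists mm9) named 27229 of 55668 probes. Of 32283 retained probes the brightest per gene gave 24044 features. Well above background were 57.7% to 63.1% of spots, 0 were saturated, and the number of arrays limits precision. The operation effect was fitted across all features by limma 3.58.1 (R 4.3.3), two-sided, with no other term. The fit was run on simulated data drawn from limma's own variance model, which checks the computation and not how that model suits these arrays. Named are all members, the 3 genes with the smallest p in each list and the 5 nearest profiles. A gene of the clock list is not reported here. Members and lists were chosen with earlier results of these data known. The labels give same-numbered replicates nothing in common but the number. The correlation of their deviations was 0.0632, which cannot show whether they were paired.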

Additional observations from a re-analysis of the deposited data

How the results depend on the processing

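Between alternatives, the count of features past the threshold was 0 in every fit run, with 845 to 2793 features at an unadjusted limma p under 0.05 and a smallest adjusted p of 0.129 to 0.648. The members' median difference of 0.60 kept its sign throughout and was 0.38 with normexp, which was run on the median spot signal since the files used hold no mean; that choice was made after seeing the data. Leaving out 1 array gave medians from 0.14 to 0.64. With the replicate number as a block the median was 0.60, 0 features passed and 1448 stood at an unadjusted p under 0.05, against 1352 without it. Fos, Junb, Egr1, Nr4a1 and Klf4 kept their direction, and all 5 of them their lack of overlap, under quantile normalization, median centring and normexp. The same held in 3 settings that could hardly change it. The authors' deposited table has nearly the same scaling as the main fit, and both other filters on dim probes leave the members' values unchanged. With normexp, whose offset draws dim probes together, Fos was 0.63, Junb 0.42, Atf3 0.38 and Ier2 0.16. Fosb turned to -0.03 with normexp and ran from -0.08 to 0.09 when 1 array was left out. Over the same omissions Atf3 ran from -0.03 to 1.26 and Ier2 from -0.03 to 0.64. Egr2, too dim for a fold change, has no value to compare across settings.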
